A study of Homo sapiens with 6 samples.

Results

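Antisense lncRNAs with a name of their own carry the symbol of the gene on the other strand followed by -AS and a number. The clusters of the array whose single symbol has this form were taken, leaving out DNAJC3-AS1. These are 792 of the 67528 transcript clusters. The values of 8 of them equal those of another member on every array, so 784 distinct clusters of 761 genes were counted. The sense partner, the gene whose symbol stands before -AS, had a cluster of its own for 707 of the 784 and none for 77, and the 707 pairs held 621 sense clusters because some sense genes have several antisense partners. The cells were SCC25, a human tongue squamous carcinoma line. The 3 control samples received the vehicle DMSO at 0.1% and the 3 TM samples received tunicamycin at 5 µg mL−1, both for 6 h, and the design text describes 3 independent biological replicates in each group. The source field of the TM samples names SCC28, while the other fields name SCC25. All 6 samples come from 1 line at 1 time and 1 dose.

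Antisense transcripts are read from the strand opposite to a gene, often from its promoter, its first intron or its far end. Some act on the gene they overlap, by recruiting or blocking chromatin proteins, by pairing with its mRNA or by the act of transcription itself, and others act far from where they are made or have no known role. TM blocks N-linked glycosylation, and the misfolded proteins that gather in the ER set off the unfolded protein response, in which XBP1, ATF6 and ATF4 switch on chaperones, amino acid transporters and tRNA synthetases.

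The arrays labelled control 3 and TM 3 went against their labels in genes of that response. The log2 level of DDIT3, which encodes CHOP, in control 1, 2 and 3 was 6.02, 6.01 and 9.28, and with TM it was 9.04, 8.88 and 5.86 in the same order. HSPA5, the ER chaperone BiP, stood at 12.39, 12.27 and 13.51 in the controls and at 13.42, 13.31 and 12.27 with TM. In both genes control 3 lay at the level of TM 1 and TM 2, and TM 3 at that of control 1 and control 2. The labels were kept. The tests were run over the 6 arrays and over replicates 1 and 2 alone, which leaves 2 arrays a group. Replicates 1 and 2 were set apart because such levels of control 3 and TM 3 were already known. Their p values for genes that follow the same pattern over the arrays depend on that choice and serve as description. Not every result is printed for both. The squamous markers KRT5, KRT14, SFN, DSP, PERP and CDH1 lay above at least 98.2% of all clusters, while KRT17, KRT6A and TP63 have no cluster of their own. Of other cell types, the leukocyte markers PTPRC, CD3E and CD14 lay above 12%, 50.3% and 58.1% of clusters, the endothelial markers PECAM1, CDH5 and VWF above 36.4%, 53.5% and 59.6%, and the fibroblast markers LUM, DCN, COL1A2 and COL1A1 above 42.6%, 46.1%, 60.5% and 83.9%.

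The promoter sequences below belong to loci on which the results turn. COL5A1-AS1 and RUVBL1-AS1 are antisense genes that passed the test in replicates 1 and 2, and INHBA is a sense gene that passed while INHBA-AS1, which starts inside it, did not. The antisense windows run from 250 bases before the start of the transcript to 50 after it, and of INHBA only the 250 bases before its start are given. They are RefSeq sequences of GRCh38.p14, at chr9:134652794-134653093 on the minus strand, chr3:128075560-128075859 on the plus strand, chr7:41693669-41693968 on the plus strand and chr7:41703091-41703340 on the minus strand. Capitals mark a match to the AP-1 site TGANTCA.
COL5A1-AS1: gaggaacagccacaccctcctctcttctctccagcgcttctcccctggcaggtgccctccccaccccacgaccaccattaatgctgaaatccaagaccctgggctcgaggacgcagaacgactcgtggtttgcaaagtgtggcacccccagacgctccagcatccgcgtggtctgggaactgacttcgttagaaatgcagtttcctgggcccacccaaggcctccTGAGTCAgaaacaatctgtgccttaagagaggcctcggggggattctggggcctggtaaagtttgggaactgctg
RUVBL1-AS1: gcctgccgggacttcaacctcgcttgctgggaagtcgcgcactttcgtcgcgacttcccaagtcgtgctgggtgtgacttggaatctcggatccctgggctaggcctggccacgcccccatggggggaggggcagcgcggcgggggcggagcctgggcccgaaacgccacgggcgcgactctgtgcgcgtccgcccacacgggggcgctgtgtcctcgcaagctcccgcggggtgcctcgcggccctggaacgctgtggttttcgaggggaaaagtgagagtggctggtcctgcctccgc
INHBA-AS1: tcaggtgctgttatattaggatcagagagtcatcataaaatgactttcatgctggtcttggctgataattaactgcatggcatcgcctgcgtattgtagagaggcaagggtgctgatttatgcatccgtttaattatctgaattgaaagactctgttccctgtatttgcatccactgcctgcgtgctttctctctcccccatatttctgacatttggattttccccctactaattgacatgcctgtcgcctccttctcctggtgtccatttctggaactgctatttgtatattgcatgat
INHBA: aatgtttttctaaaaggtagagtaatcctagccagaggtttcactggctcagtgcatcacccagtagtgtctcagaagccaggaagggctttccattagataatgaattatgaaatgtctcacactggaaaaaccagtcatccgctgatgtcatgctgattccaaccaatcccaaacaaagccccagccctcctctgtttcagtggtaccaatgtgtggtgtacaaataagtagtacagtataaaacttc
The match in COL5A1-AS1 begins 25 bases before the start, and the other 3 sequences held none of the motifs searched. The RUVBL1-AS1 window is 70% G or C, against 58.7% for COL5A1-AS1 and 43% for INHBA-AS1. The table had no window for EML2-AS1, SLC7A11-AS1 and BHLHE40-AS1.

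With all 6 arrays, no antisense lncRNA changed by the adjusted test. limma called 0 of 784 at an adjusted p of 0.05, where 0% of all clusters were called. Before adjustment 145 of 784 (18.5%) fell below 0.05, against 21.1% of the sense clusters and 19.1% of other lncRNA clusters. The share of all clusters below 0.05 before adjustment was not counted. By the array thresholds of the study, an unadjusted p below 0.05 together with a 1.2-fold difference or more, 32 antisense clusters (4.08%) were higher with TM, against 4.24% of all clusters. At the same thresholds 2 (0.255%) were lower, against 1.68% of all clusters. These calls leaned to the higher side by an amount set by the scaling: quantile normalization left 7 higher and 6 lower, and centring each array left 4 higher and 10 lower. Of all 67528 clusters, quantile normalization left 1341 higher and 1787 lower, and centring left 994 higher and 3272 lower. The sense genes gave 6 higher and 1 lower of 621, and the other lncRNA clusters with 1 symbol gave 62 higher and 2 lower of 1323. In 189 antisense clusters (24.1%) every TM array lay above every control array, which held for 20.5% of all clusters, and in 20 (2.55%) every TM array lay below, against 7.49% of all clusters.

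The antisense clusters as a set stood slightly higher with TM in the deposited values. Their median was 5.19, 5.21 and 5.16 in the controls and 5.29, 5.36 and 5.28 with TM, so the groups did not overlap. The sense genes had medians of 7.0, 6.99 and 6.97 in the controls and 7.0, 7.05 and 7.01 with TM. The median of all clusters was 5.44, 5.48 and 5.39 in the controls and 5.49, 5.52 and 5.52 with TM, also without overlap. That of other lncRNA clusters was 5.20, 5.22 and 5.14 in the controls and 5.27, 5.31 and 5.29 with TM, again without overlap. The median log2 fold change of the antisense clusters was 0.07 over the 6 arrays, with 606 of 784 (77.3%) above 0, against 0.04 over all clusters and 0.02 for the sense genes. After centring the antisense median was 0.00 and that of all clusters -0.03, with 404 of the 784 above 0. The antisense median lay 0.04 above that of all clusters in both scalings, and 0.01 above it after quantile normalization. The difference varied with level in the deposited values. In quartiles 1, 2 and 3 of the antisense level the antisense medians were 0.044, 0.085 and 0.093. All clusters of the same levels had 0.027, 0.078 and 0.089. In quartile 4 the medians were 0.074 and 0.004, but there all clusters reached a level of 14.09 and the antisense clusters 9.06. Other lncRNA clusters had a median of 0.07, the same to 2 decimals as the antisense set.

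**Figure D1:**
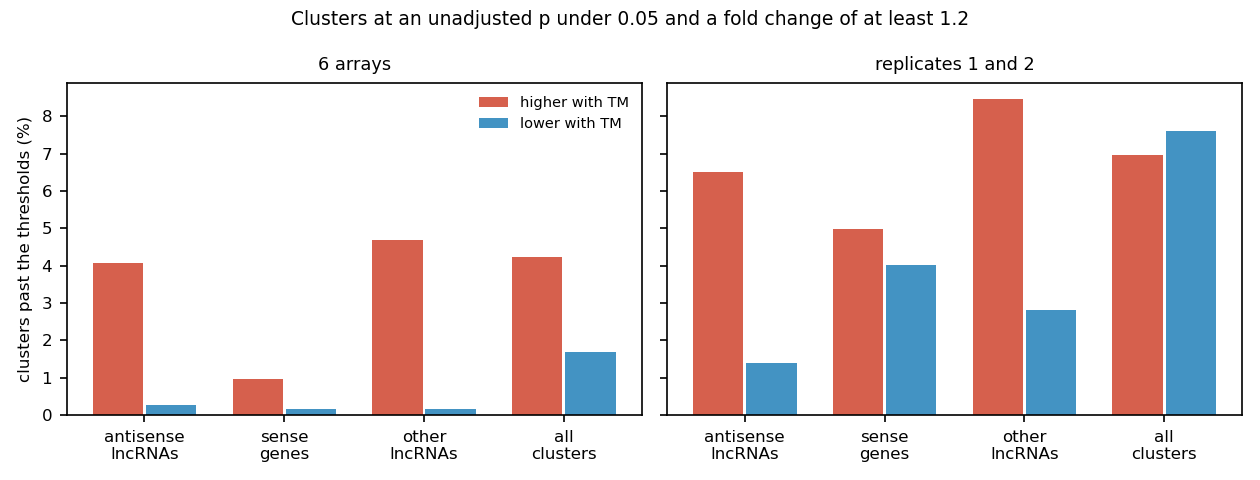
Percentage of clusters past the study's thresholds (unadjusted p below 0.05, 1.2-fold or more) that were higher (red) or lower (blue) with TM, over the 6 arrays (left) and in replicates 1 and 2 (right), for the antisense lncRNAs (784), their sense genes (621), other lncRNAs (1323) and all clusters (67528). Over the 6 arrays the antisense bars stand at 4.08% and 0.255%, and in replicates 1 and 2 at 6.51% and 1.40%.

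In replicates 1 and 2, 4 antisense lncRNAs rose at an adjusted p of 0.05 and 0 fell. This is 0.51% of the 784 higher, against 0.546% of all clusters, and 0% lower, against 0.675% of all clusters. Before adjustment 150 antisense clusters (19.1%) fell below 0.05, against 26.1% of the sense clusters and 21.5% of other lncRNA clusters. The 4 were COL5A1-AS1, EML2-AS1, RUVBL1-AS1 and ATP2B1-AS1, and none of their sense genes passed. None of the 4 kept its call when any 1 of the 4 arrays was left out, when 0 antisense clusters passed in every case. At the thresholds of the study, 51 (6.51%) were higher, against 6.96% of all clusters, and 11 (1.40%) were lower, against 7.6% of all clusters. The sense genes gave 31 higher and 25 lower of 621 by the same thresholds.

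COL5A1-AS1 lies opposite COL5A1, which encodes a chain of type V collagen. Its log2 level was 4.61, 4.61 and 4.75 in the controls and 5.17, 5.27 and 4.72 with TM. TM 1 and TM 2 stood apart from the 3 controls, and TM 3 lay among them. In replicates 1 and 2 the log2 fold change was 0.61 ± 0.06 (SE), with an adjusted p of 0.0351 by limma, and over the 6 arrays it was 0.39, with an adjusted p of 0.199. COL5A1 itself stood at 8.30, 8.30 and 8.25 in the controls and at 8.26, 8.29 and 8.31 with TM. The groups overlapped, and its log2 fold change in replicates 1 and 2 was -0.02.

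EML2-AS1 is antisense to EML2, a microtubule-binding protein. It was 7.02, 7.03 and 7.37 in the controls and 7.52, 7.62 and 7.30 with TM, so that control 3 and TM 3 lay between the other arrays of the groups. The log2 fold change in replicates 1 and 2 was 0.55 (adjusted p = 0.0408 by limma), and over the 6 arrays 0.34 (adjusted p = 0.199). EML2 was 7.59, 7.52 and 7.60 in the controls and 7.74, 7.70 and 7.65 with TM. The sense gene, unlike EML2-AS1, was higher on every TM array than on every control. Its log2 fold change of 0.16 in replicates 1 and 2 did not pass (adjusted p = 0.174 by limma).

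RUVBL1-AS1 was the 1 of the 4 whose groups did not overlap over all 6 arrays. It stood at 6.60, 6.47 and 6.52 in the controls and at 7.03, 7.08 and 6.70 with TM. TM 3 was the lowest TM array but lay above every control. The log2 fold change was 0.52 in replicates 1 and 2 (adjusted p = 0.049 by limma) and 0.41 over the 6 arrays (adjusted p = 0.149). RUVBL1, an ATPase of chromatin remodelling complexes, was 8.92, 8.92 and 8.91 in the controls and 8.82, 8.86 and 8.85 with TM. The sense gene was thus slightly lower on each TM array, by a log2 fold change of -0.07 over the 6 arrays that did not pass (adjusted p = 0.407 by limma).

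ATP2B1-AS1 lies opposite the gene of a plasma membrane calcium pump. Its log2 level was 6.32, 6.25 and 6.58 in the controls and 6.84, 6.73 and 6.21 with TM, and TM 3 was the lowest of all 6 arrays. The log2 fold change was 0.50 in replicates 1 and 2 (adjusted p = 0.0493 by limma) and 0.21 over the 6 arrays (adjusted p = 0.503). After quantile normalization ATP2B1-AS1 and RUVBL1-AS1 no longer passed. ATP2B1 was 8.81, 8.82 and 9.02 in the controls and 8.86, 8.90 and 8.64 with TM, with control 3 the highest and TM 3 the lowest of the arrays.

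**Figure D2:**
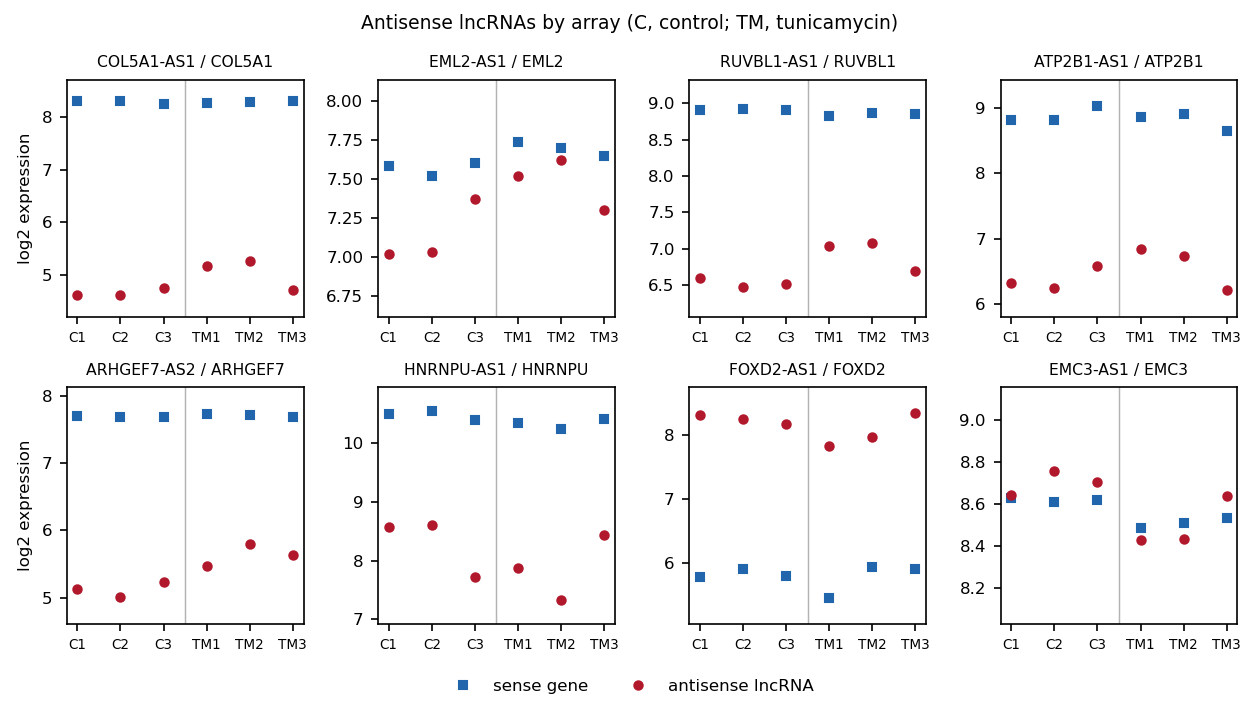
Log2 expression on each array (C1 to C3, control; TM1 to TM3, tunicamycin) of 8 antisense lncRNAs (red circles) and their sense genes (blue squares), with a y axis of its own in each panel. COL5A1-AS1 stands at 5.17 and 5.27 in TM 1 and TM 2 and at 4.72 in TM 3, and HNRNPU-AS1 is low in control 3 (7.72), TM 1 (7.88) and TM 2 (7.33).

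In replicates 1 and 2, 6 sense genes with an antisense partner rose and 1 fell at an adjusted p of 0.05, and 0 of their 8 antisense clusters passed. These are 0.966% and 0.161% of the 621 sense clusters, against 0.546% and 0.675% of all clusters. Over the 6 arrays 0 sense clusters passed the adjusted threshold. There the sense genes named below had log2 fold changes from -0.20 (TOB1) to 0.42 (SLC7A11). Their adjusted p by limma ran from 0.435 (TOB1) to 0.866 (SOX9). Whether the antisense change differed from the sense change was not tested. With any 1 of the 4 arrays left out, between 0 and 1 sense genes rose at the threshold and 0 fell.

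SLC7A11, the cystine transporter of the antioxidant defence and a known target of ATF4, changed most. It was 8.16, 8.08 and 9.56 in the controls and 9.52, 9.54 and 8.02 with TM, a log2 fold change of 1.41 ± 0.06 (SE) in replicates 1 and 2 (adjusted p = 0.0079 by limma). SLC7A11-AS1 was 3.65, 3.65 and 3.54 in the controls and 3.51, 3.64 and 3.59 with TM. Its 6 values overlapped, and its log2 fold change in replicates 1 and 2 was -0.07 ± 0.07 (SE). SLC7A11-AS1 had a mean level of 3.60, in the lowest quartile of the antisense clusters, with the leukocyte marker PTPRC at 3.26. INHBA-AS1 and BHLHE40-AS1, given below, had means of 4.14 and 4.18, under the endothelial marker PECAM1 at 4.64. Whether clusters at such levels lie above background and can show a change was not tested. Control 3 and TM 3, which exchanged places in SLC7A11, lay inside the range of the other arrays in SLC7A11-AS1.

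STARD4 carries cholesterol between membranes, and STARD4-AS1 starts head to head with it, within 1000 bases. STARD4 was 7.09, 6.91 and 8.03 in the controls and 7.88, 7.68 and 6.92 with TM, a log2 fold change of 0.78 in replicates 1 and 2 (adjusted p = 0.0455 by limma). STARD4-AS1 was 5.62, 5.55 and 5.40 in the controls and 5.51, 5.60 and 5.62 with TM. It overlapped between the groups, with a log2 fold change of -0.03 in replicates 1 and 2.

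CARS1, the cysteinyl-tRNA synthetase, was 8.06, 8.05 and 8.62 in the controls and 8.55, 8.57 and 8.0 with TM, a log2 fold change of 0.50 in replicates 1 and 2 (adjusted p = 0.0382 by limma). CARS-AS1 was 5.69, 5.83 and 5.86 in the controls and 5.73, 5.77 and 5.78 with TM. Its TM arrays lay within the range of its controls.

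INHBA encodes the subunit that forms activin A. It was 8.91, 8.78 and 9.53 in the controls and 9.39, 9.39 and 8.78 with TM, a log2 fold change of 0.54 in replicates 1 and 2 (adjusted p = 0.0457 by limma). INHBA-AS1, whose promoter is printed above, was 4.02, 4.05 and 4.27 in the controls and 4.19, 4.13 and 4.19 with TM. Here control 3 was the highest array of both transcripts, and the log2 fold change of the antisense in replicates 1 and 2 was 0.12 (adjusted p = 0.264 by limma).

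SOX9, a transcription factor of epithelial progenitors and cartilage, was 8.63, 8.55 and 9.31 in the controls and 9.14, 9.08 and 8.52 with TM. Its log2 fold change in replicates 1 and 2 was 0.52 (adjusted p = 0.0431 by limma). The 2 clusters of SOX9-AS1 had log2 fold changes of -0.08 and 0.02, and neither followed control 3 upwards.

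TOB1, an inhibitor of proliferation, was the sense gene that fell. It was 8.90, 8.85 and 8.56 in the controls and 8.45, 8.42 and 8.84 with TM, a log2 fold change of -0.44 in replicates 1 and 2 (adjusted p = 0.049 by limma). TOB1-AS1 was 6.92, 6.89 and 6.77 in the controls and 6.91, 7.06 and 6.97 with TM, with a log2 fold change of 0.07 there. After quantile normalization the adjusted p was 0.0552 for TOB1 and 0.0574 for STARD4.

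Of the 7 pairs, that of BHLHE40 had both transcripts higher at the study's thresholds in replicates 1 and 2. BHLHE40, a transcriptional repressor of the clock and of stress responses, was 8.02, 7.96 and 8.81 in the controls and 8.71, 8.67 and 8.02 with TM, a log2 fold change of 0.70 in replicates 1 and 2 (adjusted p = 0.0254 by limma). BHLHE40-AS1 was 4.01, 3.92 and 4.23 in the controls and 4.23, 4.37 and 4.31 with TM. Control 3 reached the level of TM 1, but TM 3 stayed high, and the log2 fold change in replicates 1 and 2 was 0.34 (adjusted p = 0.0831 by limma).

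**Figure D3:**
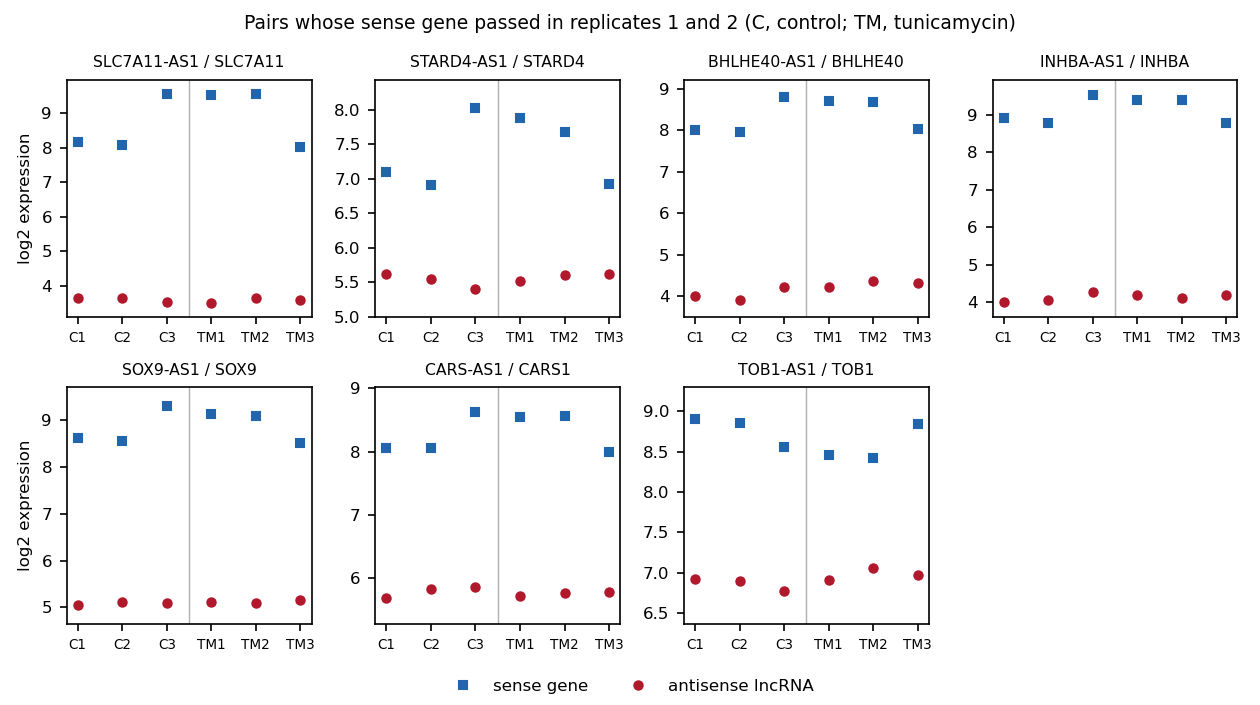
Log2 expression on each array (C1 to C3, control; TM1 to TM3, tunicamycin) of the 7 sense genes that passed in replicates 1 and 2 (blue squares) and of an antisense lncRNA of each (red circles, 1 cluster of SOX9-AS1 shown), with a y axis of its own in each panel. SLC7A11 stands at 9.56 in control 3 and at 8.02 in TM 3. SLC7A11-AS1, in the lowest quartile of antisense levels, stays between 3.51 and 3.65 on all arrays.

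Over the 707 pairs, the changes of antisense and sense ran weakly the same way. The log2 fold changes had the same sign in 448 pairs (63.4%) over the 6 arrays and in 428 (60.5%) in replicates 1 and 2. Above 0 were 77.3% of antisense and 58.5% of sense clusters over the 6 arrays, and 70.7% and 63.1% in replicates 1 and 2. The share of equal signs to be expected from these shares alone was not computed, and a link between partners was not tested. Pearson's r across the pairs was 0.251 (Spearman's rho 0.267) over the 6 arrays and 0.155 (0.179) in replicates 1 and 2. The pairs are measured on the same arrays and are not independent of each other. An equal upward shift of all values of an array moves both members alike, which bears on the signs but not on r. At the thresholds of the study in replicates 1 and 2, both members were higher in 4 pairs, both lower in 0 and opposite in 0, while over the 6 arrays no pair had both members past them.

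The 4 pairs were those of BHLHE40, LBX1, DNAJB8 and NAV2. LBX1-AS1, opposite a homeobox gene of muscle and spinal cord, was 5.23, 5.23 and 5.36 in the controls and 5.53, 5.60 and 5.44 with TM. LBX1 was 5.95, 5.74 and 5.96 in the controls and 6.26, 6.38 and 6.14 with TM, so that in this pair neither member overlapped between the groups. DNAJB8-AS1 and DNAJB8, a chaperone of the HSP40 family, had log2 fold changes of 0.28 and 0.31 in replicates 1 and 2. NAV2-AS3 and NAV2, a helicase-like protein of neurite growth, had 0.36 and 0.41 there, and NAV2 was 8.12 in control 3 and 7.69 in TM 3, at the level of the other group. None of these 8 transcripts other than BHLHE40 passed the adjusted threshold.

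Where RefSeq gave a single start for each of the 2 genes, the pairs could be placed by them. A gene with several windows was not placed. The antisense gene started head to head with the sense gene, within 1000 bases, in 86 clusters, inside the sense gene in 120, past its end in 63 and farther upstream in 18, and 497 were not placed. Over the 6 arrays, r was 0.307 for the 79 head to head pairs, 0.436 for the 113 that start inside the sense gene and 0.277 for the 60 past its end, and for the 16 farther upstream it was -0.178. In replicates 1 and 2 these were 0.146, 0.320 and 0.114, each lower, and 0.038 for the 16 upstream pairs. Whether the labelled target kept the strand of the RNA is not given in the sources used here, so overlapping transcripts of a pair that starts inside the sense gene cannot be told apart with certainty. Differences between the classes were not tested.

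**Figure D4:**
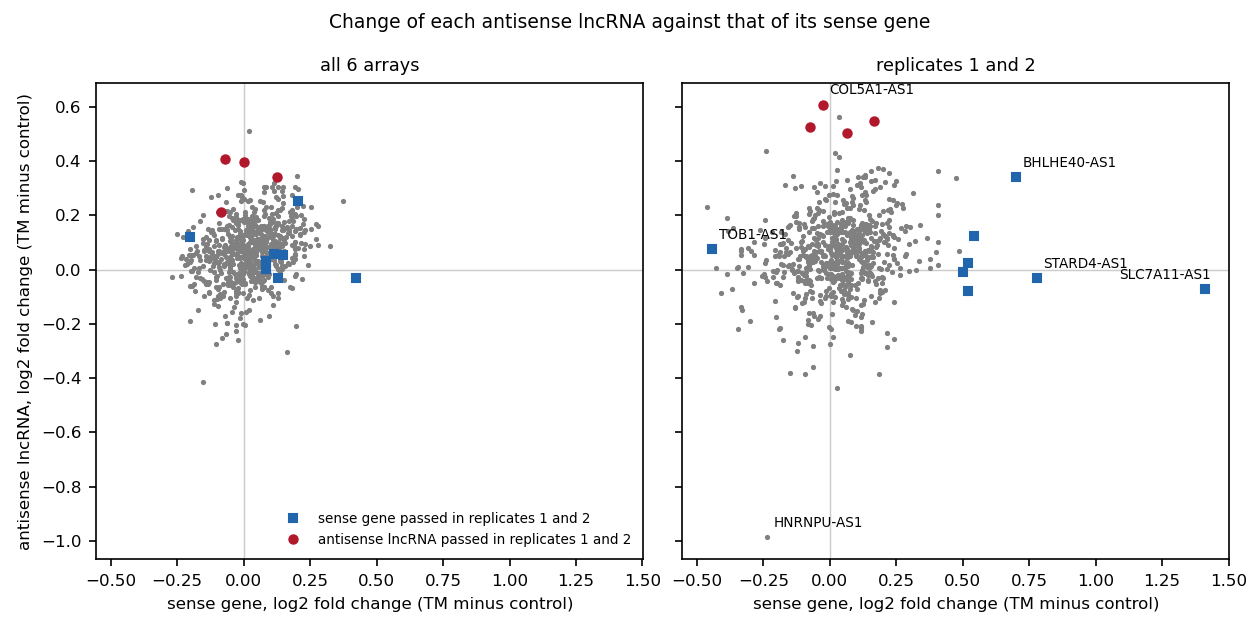
Log2 fold change (TM minus control) of each antisense lncRNA (y axis) against that of its sense gene (x axis) for 707 pairs, over the 6 arrays (left) and in replicates 1 and 2 (right). Blue squares mark pairs whose sense gene passed in replicates 1 and 2 and red circles those whose antisense lncRNA passed. SLC7A11 lies at 1.41 on the x axis with its antisense at -0.07, and COL5A1-AS1 lies at 0.61 on the y axis with its sense gene at -0.02.

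Among the antisense lncRNAs whose groups did not overlap over the 6 arrays, ARHGEF7-AS2 had the largest log2 fold change on the higher side. It lies opposite ARHGEF7, an exchange factor for Rac and Cdc42, and was 5.13, 5.01 and 5.23 in the controls and 5.47, 5.80 and 5.64 with TM. Its log2 fold change was 0.51 ± 0.10 (SE, adjusted p = 0.143 by limma), while ARHGEF7 lay between 7.68 and 7.73 on every array. RUVBL1-AS1 was next, followed by FGF14-AS2 with 0.36, MAPT-AS1 with 0.35, WWC2-AS1 with 0.33 and EZR-AS1 with 0.32. FGF14 acts on sodium channels of neurons, MAPT encodes tau, WWC2 is a scaffold of the Hippo pathway and EZR links actin to the plasma membrane. MAPT-AS1 has another cluster on the array, which is not given here. The cluster named was 7.54, 7.40 and 7.30 in the controls and 7.81, 7.78 and 7.69 with TM. MAPT was higher with TM as well, by a log2 fold change of 0.20, while EZR differed by -0.01. None of these passed the adjusted test over the 6 arrays.

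On the lower side, the 6 largest differences without overlap were those of SMIM2-AS1 (-0.30), FLRT2-AS1 (-0.27), RASAL2-AS1 (-0.26), PRKCQ-AS1 (-0.24), SLFNL1-AS1 (-0.21) and DDX11-AS1 (-0.20). RASAL2-AS1, opposite a Ras GTPase-activating protein, was 7.99, 7.89 and 7.77 in the controls and 7.54, 7.62 and 7.71 with TM. PRKCQ-AS1, opposite protein kinase C theta, was 6.11, 6.13 and 5.97 in the controls and 5.85, 5.84 and 5.81 with TM. In both, TM 3 stayed below every control. SLFNL1, the sense gene of SLFNL1-AS1, had the opposite sign, with a log2 fold change of 0.20 over the 6 arrays. Each of the 6 missed the adjusted threshold in both fits.

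HNRNPU-AS1 had the lowest fold change of all antisense clusters in replicates 1 and 2. It was 8.57, 8.61 and 7.72 in the controls and 7.88, 7.33 and 8.44 with TM, with control 3 and TM 3 at the level of the other group. The log2 fold change was -0.99 ± 0.18 (SE) in replicates 1 and 2, which did not pass (adjusted p = 0.0633 by limma), and -0.42 over the 6 arrays. HNRNPU, an abundant nuclear RNA-binding protein, had -0.24 in replicates 1 and 2 (adjusted p = 0.114). The gene table now lists the antisense symbol as a synonym of HNRNPU, so this cluster may not be an antisense gene in the current annotation. TPRG1-AS1 (-0.43), SMIM2-AS1 (-0.39), PSMD6-AS2 (-0.38), next to a subunit of the proteasome lid, and FOXD2-AS1 (-0.38) followed. On the higher side DLGAP1-AS1 had 0.51 in replicates 1 and 2, with control 3 at 6.58 and TM 3 at 6.05 beside 6.15 and 6.05 in the other controls and 6.48 and 6.73 in the other TM arrays.

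The 5 members with the highest values were OIP5-AS1, FAM83H-AS1, TMPO-AS1, DHRS4-AS1 and EMC3-AS1, by a scale that does not rank one transcript against another with certainty. DHRS4-AS1 has another cluster on the array, which is not given here. The gene table now lists FAM83H-AS1 as IQANK1, so it may no longer count as an antisense gene. OIP5-AS1, which binds miRNAs and is known as cyrano in zebrafish, was 9.08, 9.05 and 9.14 in the controls and 9.06, 8.99 and 9.06 with TM. It varied little, and its log2 fold change was -0.05 over the 6 arrays, while OIP5, a centromere protein, had -0.19. TMPO-AS1 had 0.12 and TMPO, a protein of the nuclear lamina, -0.23. EMC3 belongs to the complex that inserts membrane proteins into the ER. EMC3-AS1 was 8.64, 8.76 and 8.70 in the controls and 8.43, 8.43 and 8.64 with TM, and EMC3 was 8.63, 8.61 and 8.62 in the controls and 8.48, 8.51 and 8.53 with TM. Both members of this pair were lower with no overlap, and neither passed (adjusted p = 0.0926 for EMC3-AS1 in replicates 1 and 2 by limma). Its antisense promoter holds the cAMP response element TGACGTCA, beginning 38 bases before the start.

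Of 57 antisense lncRNAs listed for a known role, 45 were on the array as 49 clusters. Over the 6 arrays 0 were past the thresholds of the study in either direction, against 4.24% of all clusters higher and 1.68% lower. In replicates 1 and 2, 0 were higher and 2 lower, against 6.96% and 7.6% of all clusters. These 2 were FOXD2-AS1 and MAPKAPK5-AS1, both studied as lncRNAs of tumour growth. FOXD2-AS1 was 8.32, 8.24 and 8.18 in the controls and 7.83, 7.97 and 8.35 with TM, and MAPKAPK5-AS1 was 7.60, 7.59 and 7.45 in the controls and 7.21, 7.35 and 7.47 with TM. TM 3 rejoined the controls in both. The median log2 fold change of the 49 clusters was 0.06 over the 6 arrays, within a range from -0.21 to 0.21, against a median of 0.04 over all clusters.

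By the function of the sense gene, no group of antisense lncRNAs had more than 1 member past the adjusted threshold in replicates 1 and 2. The counts that follow are at the thresholds of the study in replicates 1 and 2, where 6.96% of all clusters were higher and 7.6% lower. Opposite genes of the ER and the secretory pathway, which the treatment addresses most directly, 6 of 34 antisense clusters were higher and 0 lower, with COL5A1-AS1 the 1 that passed the adjusted test, and the median was 0.06. Over the 6 arrays 1 of the 34 was higher, where 4.24% of all clusters were. Opposite transcription factors, 3 of 66 were higher and 1 lower. In 22 of the 66 every TM array lay above every control and in 0 below, against 20.5% and 7.49% of all clusters. The shares in all 784 antisense clusters were 24.1% and 2.55%. Opposite genes of squamous epithelium and adhesion, a list that shares COL5A1-AS1 with the first, 6 of 40 were higher and 1 lower. Opposite genes of nerve, muscle and heart, tissues that SCC25 does not come from, 5 of 60 were higher and 0 lower, with a median of 0.08 for the antisense and 0.11 for the sense genes. Opposite DNA repair and cell cycle genes, 1 of 22 was higher, RUVBL1-AS1, and the median was 0.03, while the 20 sense genes had a median of -0.13 with 5 lower. Opposite mitochondrial genes, 1 of 18 was higher, and opposite genes of ubiquitin and the proteasome, 0 of 25 were higher and 1 lower. Every TM array lay above every control in 6 of the 34 of the ER group, 7 of the 40 squamous and 15 of the 60 nerve. The same held for 3 of the 22 of DNA repair, 6 of the 18 mitochondrial and 8 of the 25 of ubiquitin. Every TM array lay below in 1, 0, 2, 2, 0 and 2 of these, in the same order.

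Several sense genes carry a row of antisense partners, whose changes ranged differently from row to row. The 3 antisense genes of DLGAP1, a scaffold protein of synapses, had log2 fold changes from -0.01 to 0.51 in replicates 1 and 2, and the 3 of CACNA1C, a calcium channel of heart and nerve, from -0.03 to 0.37. The 4 antisense genes of NAV2 ranged from 0.02 to 0.36, and those of the axon protein gene KIRREL3 (3 clusters) from 0.06 to 0.26. The 4 HOXB antisense genes, transcribed within a homeobox cluster, had changes from 0.07 to 0.23. The 3 HOXC antisense genes ranged from -0.19 to 0.24. The 3 clusters of HIF1A-AS1 and HIF1A-AS2, opposite the hypoxia regulator, ranged from -0.14 to 0.01, and HIF1A itself had 0.06.

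Promoter windows of 300 bases were on hand for 527 antisense genes and 330 sense genes, and both strands were searched. Only genes with a single window were counted among these, while the set of all windows was taken without that restriction. The ER stress response element, CCAAT and CCACG with 9 bases between them, was in 0 antisense and 0 sense windows and in 27 of all 35116 (0.0769%). TGACGTGG, bound by XBP1 and ATF6, was in 3 antisense windows (0.569%) against 0.729% of all, and TGATGNAAN, the composite site of ATF4 and CEBP proteins, in 18 (3.42%) against 3.61% of all. The cAMP response element TGACGTCA was in 13 (2.47%) against 1.85% of all. The AP-1 site TGANTCA was in 57 antisense windows (10.8%), in 13 sense windows (3.94%) and in 7.71% of all. COL5A1-AS1 is one of the 57. A match is a description of the letters and no evidence of binding, and differences between these shares were not tested.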

How the data were processed

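Total RNA of 3 control and 3 TM samples was measured on GeneChip HTA 2.0 arrays. The deposited table holds log2 levels that the authors had summarised to 1 value for each transcript cluster on an array and normalized, and the submitters' processing notes name MAS5. The sources used here give no build, probe set version or background correction. The log2 values were used as deposited, without a filter. Gene symbols came from the platform annotation and were matched to the gene table of GRCh38.p14, where 762 antisense clusters kept their symbol and 29 have another name now. The 37 clusters that join an antisense symbol with another symbol were left out. Where a sense gene had several clusters, the one with the highest mean over the 6 arrays was used.

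TM was compared with control with limma 3.58.1 under R 4.3.3 (lmFit, eBayes, two-sided) on all 67528 clusters, with Benjamini-Hochberg adjustment over all of them at 0.05. A second count used the study's array thresholds, an unadjusted p below 0.05 with a 1.2-fold difference or more. The members, the lists, the motifs, the rules for naming genes and the use of replicates 1 and 2 alone were chosen with earlier results of these data known. Named were members past the adjusted threshold, those whose sense gene passed, the largest differences without overlap (6 in each direction) and in replicates 1 and 2 (5 in each direction), the 5 highest in level and a list of characterised lncRNAs, of which those past the study's thresholds were named. DDIT3 and HSPA5 were named as a check, and the 3 pairs past the study's thresholds beside BHLHE40 and the rows of antisense genes of 1 locus were named after their values were seen. Simulated data for 67528 clusters held 200 that were changed. With 3 arrays a group, limma recovered 93% of those changed by 0.5 and 100% of those changed by 1 on the log2 scale. With 2 arrays a group it recovered 68% and 100%. Both simulations used the spread of replicates 1 and 2. The values for 3 arrays a group therefore do not describe the test over the 6 arrays. The SE of SLC7A11 was 0.53 over the 6 arrays and 0.06 in replicates 1 and 2. Alternatives were quantile normalization, centring, clusters above the median level, trend and robust eBayes, the replicate block, the mean of all clusters of a symbol for the sense genes, a fold change of 1.5 and leaving out arrays. The number of arrays limits the precision. Figures used matplotlib 3.10.9 and Python 3.11.15.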

Additional observations from a re-analysis of the deposited data

How the results depend on the processing

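Of the 358 values of the 33 named clusters under an alternative, 339 kept their direction. The count of antisense clusters past the adjusted threshold over the 6 arrays, 0, became 4 without control 3 and TM 3. The 32 higher at the thresholds of the study became 4 with centring, 7 with quantile normalization, 15 among clusters above the median level, 0 at a fold change of 1.5, 51 without both replicate 3 arrays, and 16 (without TM 2) to 51 (without TM 3) with 1 array left out. The 2 lower became 10, 6, 1, 0 and 11 in the same settings, 1 with the replicate block, and 1 (without control 2) to 7 (without TM 3) with 1 array left out. In replicates 1 and 2 the 4 higher became 2 with quantile normalization, 13 with trend and robust eBayes and 20 among clusters above the median level, and the 0 lower became 5 and 14 in the last 2 of these. With 1 array left out the count of higher clusters ranged from 0 to 0. The median log2 fold change became 0.0030 with centring and 0.024 with quantile normalization over the 6 arrays, and 0.023 with centring in replicates 1 and 2. Of all 67528 clusters, the 2863 higher over the 6 arrays became 994 with centring and 1341 with quantile normalization. The 1133 lower became 3272 and 1787. The labels say nothing of a shared culture or day behind a replicate number. The deviations of arrays of the same number correlated at -0.18, -0.31 and -0.53, but since control 3 and TM 3 lie at the level of the other group these values cannot tell whether the numbers share a batch. With the replicate block 0 of the 4 antisense clusters and 1 of the 7 sense genes, SLC7A11 (adjusted p = 0.0479 by limma), passed in replicates 1 and 2. The cause of these changes was not tested.

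Named clusters that changed sign lay near 0. With centring and quantile normalization these were SOX9-AS1 (-0.068 and -0.064 in 1 cluster, -0.038 and -0.040 in the other), STARD4-AS1 (-0.019 and -0.015) and INHBA-AS1 (-0.015 and -0.0015), and with centring DHRS4-AS1 (-0.027) and FAM83H-AS1 (-0.00045). Without both replicate 3 arrays they were SOX9-AS1 (-0.081), STARD4-AS1 (-0.031) and TMPO-AS1 (-0.012). With arrays left out singly or as the replicate 3 pair, SOX9-AS1 ranged from -0.0841 to 0.0927, STARD4-AS1 from -0.0311 to 0.102, TMPO-AS1 from -0.0116 to 0.224, SLC7A11-AS1 from -0.0724 to 0.00729, CARS-AS1 from -0.0861 to 0.00183 and DHRS4-AS1 from -0.00630 to 0.101.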
